A study of Mus musculus with 32 samples.

Results

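Livers that had received only the arachidonate diet were set against livers that carried only the FAAH substitution. The WT NASH-AA group came from wild-type mice on the diet the labels call NASH-AA, and the FAAH S268D NASH group from mice with the S268D form of fatty acid amide hydrolase on the NASH diet. Each group held 8 libraries, so 16 of the 32 libraries of the study entered the comparison, chosen by genotype and diet label alone. The series text gives 28 weeks on HFFC feed, with or without ARA, for all mice, and NASH-AA is taken here as the feed with ARA. All 4 groups shared the HFFC feed, so no group shows an untreated liver. WT NASH, with neither change, and FAAH S268D NASH-AA, with both, stand beside the comparison below. The sources used here do not name the strain, sex or age of the mice, how many founder lines carry the substitution, or whether libraries of a group came from separate animals. The p-values therefore measure the spread between these libraries, which may be technical.

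Fatty acid amide hydrolase is a membrane serine hydrolase of the liver and brain that splits fatty acid amides. Its substrates include anandamide, an amide of arachidonate that acts on cannabinoid receptors, and N-acyl taurines, in which a fatty acid is joined to taurine. The S268D form has been described as poor at splitting N-acyl taurines. Arachidonate, an omega-6 polyunsaturated fatty acid, is stored in membrane phospholipids and is the precursor of prostaglandins and leukotrienes as well as of arachidonoyl-taurine, which the series title names. Both changes thus bear on the same class of lipid, the diet through the supply of its fatty acid and the substitution through the enzyme that removes it.

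Whole-liver polyA RNA was counted per gene. Total counts ran from 20974680 to 34370023 in WT NASH-AA and from 3851389 to 26662506 in FAAH S268D NASH, where replicate 1 was the shallow library and the other 7 held at least 21349261. Hepatocyte genes dominated both groups: albumin (Alb) had a median of 50100 CPM (counts scaled to a common library size with TMM factors) in WT NASH-AA and 47200 in FAAH S268D NASH. Of the pancreatic acinar markers, Cpa1 and Pnlip were at 0 in all 16 libraries, whereas Cela1 ran from 8.09 to 13.4 CPM in WT NASH-AA and from 6.03 to 22.5 CPM in FAAH S268D NASH. The gut marker Muc5b was at 0 in all 16, and Vil1 was at most 0.19 CPM in WT NASH-AA and 0.9 CPM in FAAH S268D NASH. The FAAH S268D NASH libraries varied more. The median SD over genes of log2 CPM was 0.314 in that group and 0.2 in WT NASH-AA, and it was 0.246 without the shallow library. On the first principal component of all 32 libraries (24.3% of the variance), FAAH S268D NASH replicates 1 to 4 lay between 19.7 and 46.4 and replicates 5 to 8 between -41.6 and -9.47, with WT NASH-AA between -16.4 and 15.1. In whole liver, fewer cells of a type and less RNA per cell cannot be told apart.

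Livers with only the diet change and livers with only the substitution differed from each other in few genes. These included genes along the chromosome around Faah and pseudogene copies of such genes. Genes elsewhere differed too, among them several interferon-inducible genes, the acute-phase gene Saa3 and the taurine enzyme gene Csad. Of 14902 genes tested, 102 (0.684%) passed an adjusted p under 0.05 (limma-voom, 2-sided, Benjamini-Hochberg over all genes). Of these, 51 (0.342%) were higher in WT NASH-AA and 51 (0.342%) were lower. Set against WT NASH at the same threshold, 657 genes passed for WT NASH-AA and 1368 for FAAH S268D NASH, so neither change alone was small. The log2 fold change is WT NASH-AA minus FAAH S268D NASH throughout, with its SE. Its median over all genes was 0.00263, and 39 of the 102 genes differed by at least 1 on that scale. In 35 genes (0.235%) the CPM of the 8 libraries of each group did not overlap, and 34 of these were among the 102. The call count depended on how the spread was estimated. It was 58 when the 16 libraries were fitted without the other groups, and 336 with a quality weight per library.

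Faah itself was slightly higher in the mutant livers. WT NASH-AA libraries held 140 to 166 CPM with a median of 157, and FAAH S268D NASH libraries 163 to 227 with a median of 185. The lowest mutant library lay below the highest wild-type one, so the groups overlapped narrowly. The difference was -0.25 ± 0.06 (adjusted p = 0.0438, limma-voom). The call ended, with adjusted p up to 0.11, when WT NASH-AA replicate 2, 4, 5, 6, 7 or 8 or FAAH S268D NASH replicate 2, 4, 6, 7 or 8 was left out, and it was 0.164 in the 16 libraries alone. The median was 151 CPM in WT NASH and 178 CPM in FAAH S268D NASH-AA. Set against WT NASH, whose libraries both values share, the diet gave 0.02 ± 0.06 and the genotype 0.27 ± 0.06 (adjusted p = 0.838 and 0.00677). Transcript level says nothing of the S268D substitution itself, which gene counts do not resolve.

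Genes on both sides of Faah made up 52 of the 102. Faah lies on the minus strand at chr4:115967145-116017926 (GRCm38). Within 40 Mb of it, 52 of 607 genes tested passed (8.57%), 25 higher and 27 lower in WT NASH-AA, and 21 of them did not overlap between groups. On the rest of that chromosome 0 of 320 passed, and on all other chromosomes 50 of 13975 (0.358%). The genes called lay between 103.6 and 149.6 Mb on chromosome 4, and the densest stretch, from 130 to 140 Mb, had 27 of 139 (19.4%). Both directions occurred on each side of Faah, with runs of 1 direction. The genes called from Eps15 (-6.74 Mb from Faah) to Zfp69 (4.91 Mb), a run that holds Faah, were all lower in WT NASH-AA. So were those from Htr1d (20.41 Mb) to Tmem51 (26.01 Mb). DNA inherited together with the substituted allele and the substitution itself cannot be told apart in these groups.

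**Figure D1:**
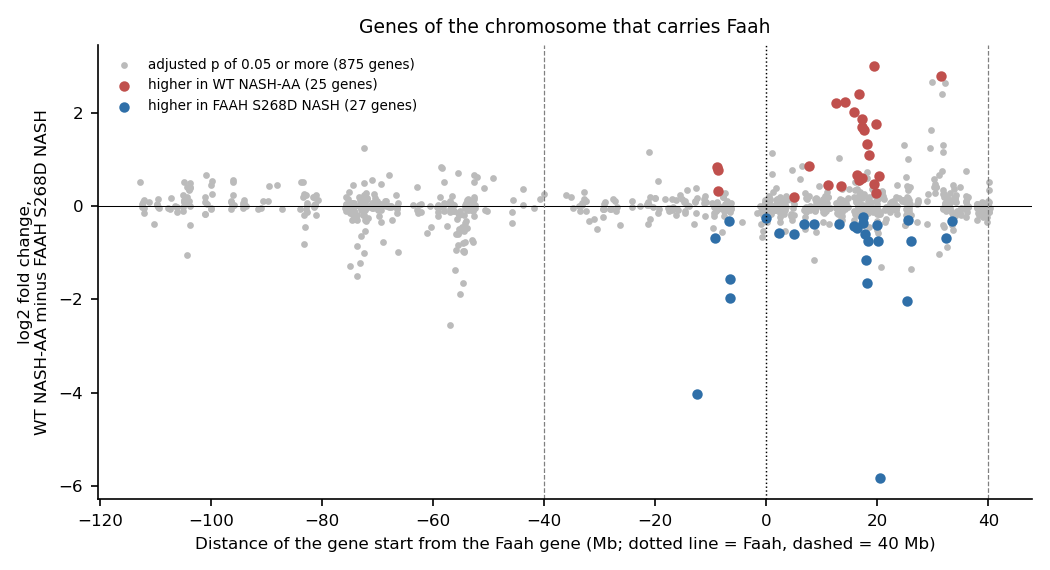
Log2 fold change (WT NASH-AA minus FAAH S268D NASH) of every tested gene on the chromosome that carries Faah, by distance of the gene start from Faah in Mb. Coloured points passed adjusted p under 0.05; all 52 lie between the dashed lines at 40 Mb, 25 above and 27 below 0, and none of the 320 genes beyond them passed.

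Among the genes named near Faah, those higher in WT NASH-AA included a receptor, a kinase and a vesicle protein. Tlr12, an endosomal Toll-like receptor that senses profilin of parasites, ran from 11.5 to 33.5 CPM with a median of 25 in WT NASH-AA, against 2.9 to 8.02 with a median of 4.57 in FAAH S268D NASH. No library of either group reached the range of the other. The difference was 2.20 ± 0.23 (adjusted p = 2.5e-07). Serinc2, a serine incorporator family membrane protein, had medians of 14.4 and 3.68 CPM (2.23 ± 0.28, adjusted p = 4.51e-06), again without overlap. Sytl1, a synaptotagmin-like protein of vesicle transport, ran from 7.43 to 11.6 CPM against 1.54 to 3 CPM (1.85 ± 0.20, adjusted p = 2.51e-07). Its neighbour Map3k6, a kinase of the stress-activated cascade, had medians of 3.24 and 1.09 CPM and overlapped between groups by a single margin of 1.75 to 1.8 CPM (1.70 ± 0.31, adjusted p = 0.00176). Cep85, a centrosome protein, was 33.7 CPM or more in every WT NASH-AA library and 18.4 CPM or less in every FAAH S268D NASH library (1.33 ± 0.12, adjusted p = 9.08e-09).

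Further genes near Faah were higher in WT NASH-AA. Ptpru, a receptor tyrosine phosphatase, had medians of 1.68 and 0.39 CPM (2.01 ± 0.37, adjusted p = 0.00202). Il22ra1, a subunit of the receptor through which interleukin-22 acts on hepatocytes, had medians of 3.23 and 1.23 CPM (1.75 ± 0.38, adjusted p = 0.0148), and its call ended without FAAH S268D NASH replicate 2 or 4 (adjusted p up to 0.0634) and in the 16 libraries alone (0.0621). Zfp982, a zinc finger gene, had medians of 5.29 and 0.591 CPM (2.79 ± 0.65, adjusted p = 0.0282). FAAH S268D NASH replicate 8, at 6.31 CPM, stood inside the WT NASH-AA range of 2.68 to 6.54. Its call ended without WT NASH-AA replicate 8 or FAAH S268D NASH replicate 2, 4, 6 or 7 (adjusted p up to 0.0961). With smaller differences and small p, Stmn1, which binds tubulin, Tceanc2 and Tcea3, which are related to a transcription elongation factor, and Xkr8, a scramblase of dying cells, were higher by 1.08 ± 0.17, 0.84 ± 0.09, 0.63 ± 0.10 and 0.56 ± 0.08 (adjusted p = 0.000197, 2.51e-07, 0.000197 and 0.000103). Dio1, the deiodinase that activates thyroid hormone in liver, was chosen after its values were seen. It had medians of 185 and 112 CPM (0.76 ± 0.15, adjusted p = 0.00556).

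Among the genes near Faah that were higher in FAAH S268D NASH, Fam131c had the largest difference of those named. It ran from 3.68 to 9.01 CPM in WT NASH-AA and from 12.5 to 35.1 CPM in FAAH S268D NASH (-2.03 ± 0.25, adjusted p = 4.51e-06). Ttc39a, a tetratricopeptide repeat gene, ran from 4.32 to 12.4 against 13.1 to 25.7 CPM (-1.57 ± 0.20, adjusted p = 1.02e-05). Its neighbouring antisense transcript Ttc39aos1 was lower as well (-1.97 ± 0.23, adjusted p = 1.65e-06). None of these 3 genes overlapped between the groups. Rps6ka1, a ribosomal S6 kinase downstream of ERK, had medians of 27.5 and 41.9 CPM (-0.60 ± 0.09, adjusted p = 0.000197), without overlap. Asap3, which acts on ARF GTPases, did not overlap either (-0.75 ± 0.12, adjusted p = 0.000272).

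Several enzymes stood in the same group. Ppt1, the lysosomal thioesterase that removes palmitate from proteins, had medians of 43.1 and 58.4 CPM (-0.38 ± 0.06, adjusted p = 0.000336). Hyi, a hydroxypyruvate isomerase, had medians of 52.5 and 79 CPM (-0.58 ± 0.10, adjusted p = 0.000929), and Extl1, a glycosyltransferase of the exostosin family, 21.5 and 35.6 CPM (-0.76 ± 0.14, adjusted p = 0.00259). Crybg2, Tmem51 and Rcc1, the last a guanine exchange factor for RAN, were lower in WT NASH-AA by values of -1.16 ± 0.21, -0.74 ± 0.16 and -0.47 ± 0.08 (adjusted p = 0.00176, 0.0105 and 0.0016). Acot11, an acyl-CoA thioesterase, was chosen after its values were seen. It ran from 29.6 to 48.7 CPM in WT NASH-AA and from 49.1 to 82.2 CPM in FAAH S268D NASH (-0.68 ± 0.15, adjusted p = 0.0139).

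**Figure D2:**
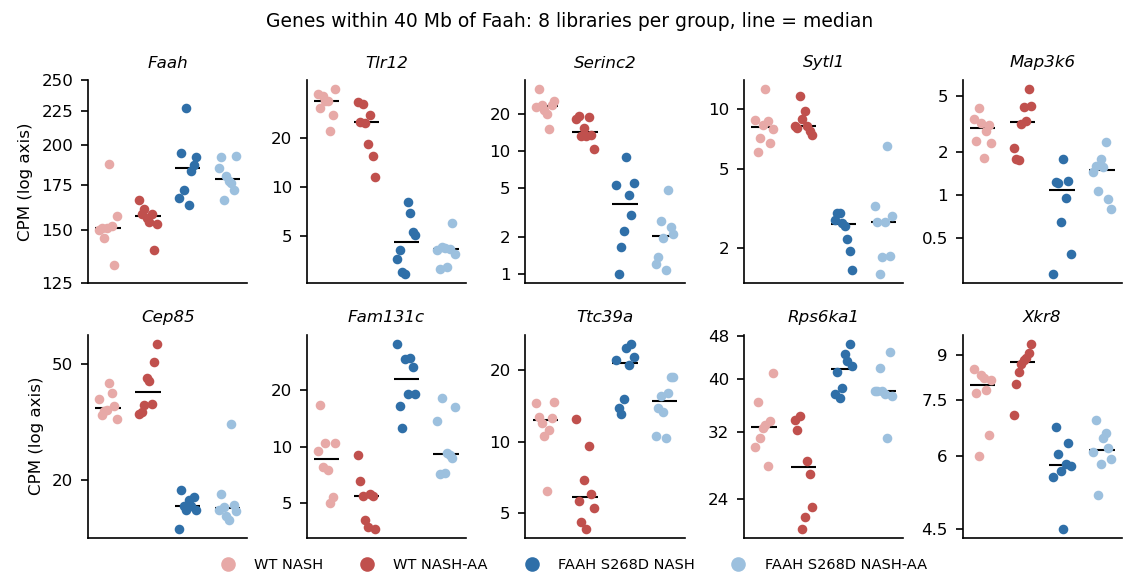
Normalised CPM (log axis) of Faah and 9 other genes within 40 Mb of it, in the 8 libraries of each of the 4 groups, with the group median as a line. In Tlr12, Serinc2, Sytl1, Cep85, Fam131c, Ttc39a, Rps6ka1 and Xkr8 the WT NASH-AA and FAAH S268D NASH libraries do not overlap.

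The sizes of the diet and genotype differences varied from gene to gene when each group was set beside WT NASH, whose libraries both contrasts share. Tlr12 differed by -0.54 ± 0.17 with diet and -2.74 ± 0.23 with genotype (adjusted p = 0.0577 and 1.79e-09). Cep85 differed by 0.19 ± 0.11 and -1.14 ± 0.12 (adjusted p = 0.289 and 2.09e-07). Extl1 differed from WT NASH in both groups, by 0.81 ± 0.15 with diet and 1.57 ± 0.15 with genotype (adjusted p = 0.0134 and 1.95e-08). Acot11 likewise gave 0.64 ± 0.15 and 1.32 ± 0.15 (adjusted p = 0.021 and 5.71e-07). Ttc39a gave -0.84 ± 0.21 with diet and 0.73 ± 0.18 with genotype (adjusted p = 0.0283 and 0.0123), so WT NASH lay between the groups compared.

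The other 16 libraries of the study gave the same genes a second look, chosen after the data were seen. FAAH S268D NASH-AA and WT NASH differ in both genotype and diet and share no library with the comparison, although 1 fit over 32 libraries estimated the spread of both. For FAAH S268D NASH-AA minus WT NASH, a gene whose level goes with genotype has the opposite sign to the present comparison, and a gene that goes with diet has the same sign. That contrast called 4571 genes (30.7%), among them 233 of the 607 within 40 Mb of Faah. All 52 genes near Faah had the sign of the genotype, and 38 of them (73.1%) passed. Of those 52 genes, 0 passed with the sign of the diet. Of the 50 genes on other chromosomes, 28 had the sign of the genotype, 15 passed with it and 2 passed with the sign of the diet. With these other 16 libraries fitted alone, 13 of the 50 passed with the sign of the genotype and 0 with that of the diet. Near Faah 38 passed with the sign of the genotype in that fit. The 50 include 7 annotated pseudogenes, all of which share sequence with a gene near Faah, as described below. The 55 genes in both sets are 53.9% of the 102 and 1.2% of the 4571.

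Several pseudogenes on other chromosomes had more counts in mutant than in wild-type livers. Of 604 annotated pseudogenes tested there, 7 passed (1.16%) and all 7 were lower in WT NASH-AA. All 7 share at least 39.8% of their 21-base words with transcripts of a gene near Faah, the only genes they were compared with. Among them, Gm4864 shares 40.5% with Hdac1 and Gm6594 39.8% with Hmgn2. They differed by -4.7 and -4.1 (adjusted p = 2.37e-12 and 9.08e-09, limma-voom). Ndufs5-ps, a processed pseudogene of the respiratory complex I gene Ndufs5, lies at chr16:42955631-42955949. It and the other copies named here were chosen after their values were seen. WT NASH-AA libraries held 0.185 to 0.666 CPM, and FAAH S268D NASH libraries 17 to 29.6 CPM (-5.37 ± 0.27, adjusted p = 4.66e-15). WT NASH had a median of 0.495 CPM and FAAH S268D NASH-AA of 20.2 CPM, so both mutant groups were high. Of its 21-base words, 86% occur in transcripts of Ndufs5, which lies near Faah at chr4:123712710-123718202. Ndufs5 itself was higher in WT NASH-AA, with medians of 55.3 and 29.6 CPM (0.86 ± 0.09, adjusted p = 5.14e-07). The sum of gene and copy was 56.5 ± 4.77 CPM in WT NASH-AA and 55.3 ± 15.1 CPM in FAAH S268D NASH (SD, n = 8 each). Whether reads of one were counted to the other was not tested.

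**Figure D3:**
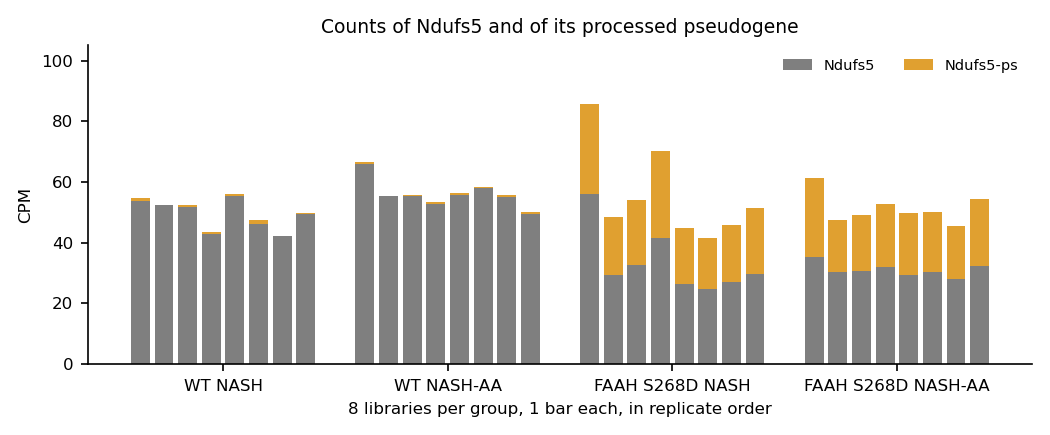
CPM of Ndufs5 (grey) and of its processed pseudogene (orange), stacked, in 1 bar per library for the 4 groups. The pseudogene is at most 0.666 CPM in WT NASH-AA and at least 17 CPM in FAAH S268D NASH, while the summed bars average 56.5 and 55.3 CPM.

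A like pattern was seen in the deacetylase gene Hdac1, at chr4:129516104-129542713, and a copy that shares 89.7% of its words with it. Hdac1-ps, at chr17:78491582-78493025, ran from 0.125 to 0.69 CPM in WT NASH-AA and from 1.25 to 2.77 in FAAH S268D NASH (-2.15 ± 0.25, adjusted p = 1.07e-06). Hdac1 was 0.42 ± 0.07 higher (adjusted p = 0.000421), and their sum was 20.1 ± 1.23 and 17.3 ± 3.9 CPM (SD, n = 8 each). The pseudogene Gm10182 and Gm10282, which is annotated as protein-coding, share 100% and 89% of their words with Hmgn2, a nucleosome-binding protein gene near Faah. They were lower in WT NASH-AA by values of -2.79 ± 0.48 and -2.54 ± 0.35 (adjusted p = 0.000929 and 2.77e-05). Hmgn2 itself did not pass (-0.02 ± 0.08, adjusted p = 0.967). The values of Ndufs5, Hdac1, Hmgn2 and their copies are uncertain, since no source used here names the counting program or says how shared reads were assigned.

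On other chromosomes, 36 of 12418 protein-coding genes passed (0.29%), 23 higher and 13 lower in WT NASH-AA. The taurine enzyme Csad, cysteine sulfinic acid decarboxylase at chr15:102176999-102204724, makes the hypotaurine from which taurine is formed. It ran from 93 to 241 CPM with a median of 158 in WT NASH-AA, and from 65.5 to 141 CPM with a median of 78.1 in FAAH S268D NASH. Replicate 8, at 141 CPM, was the one mutant library above 99.9 CPM. The difference was 0.90 ± 0.17 (adjusted p = 0.00363), with 0.98 ± 0.21 in libraries numbered 1 to 16 and 0.67 ± 0.24 in those numbered 17 to 32. Beside WT NASH, with a median of 177 CPM, the diet gave -0.11 ± 0.18 and the genotype -1.0 ± 0.17 (adjusted p = 0.751 and 0.000742). FAAH S268D NASH-AA was low as well, with a median of 68.5 CPM. In the list of taurine synthesis and transport, 1 of 6 genes tested passed, with a median log2 fold change of 0.04 (0.07 without FAAH S268D NASH replicate 3). The next members by p were Fmo1, an oxygenase that makes taurine from hypotaurine (0.18 ± 0.09, adjusted p = 0.581), Slc6a13, a taurine carrier (-0.06 ± 0.07, adjusted p = 0.857), and Cdo1, which makes the substrate of Csad (0.06 ± 0.10, adjusted p = 0.921).

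Interferon-inducible genes stood higher in WT NASH-AA. Interferons act through STAT and IRF factors that bind short promoter elements known as ISRE and GAS, and induce GTPases and sensors against intracellular microbes. Of 30 tested genes in the list of interferon response and MHC class I, all 30 had a positive log2 fold change, 3 passed (Zbp1, Ifi47 and Gbp3), 0 passed in the other direction, and 22 had an unadjusted p under 0.05. Over all genes, 1395 of 14902 had such a p. The list's median was 0.42, beside 0.00263 for all genes. Zbp1, a sensor of Z-form nucleic acids, ran from 8.73 to 17.9 CPM with a median of 12 against 2.51 to 10.3 CPM with a median of 6.48 (1.01 ± 0.21, adjusted p = 0.00768). Ifi47, an immunity-related GTPase, had medians of 14.7 and 8.09 CPM (0.70 ± 0.16, adjusted p = 0.0274). Gbp3, a guanylate-binding protein, had medians of 13.8 and 9.27 CPM (0.70 ± 0.17, adjusted p = 0.0434). The groups overlapped in all 3 genes. Gbp7, the next by p, did not pass (0.61 ± 0.15, adjusted p = 0.0535).

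A few further interferon-inducible genes outside the list passed and were chosen after their values were seen. Igtp, an immunity-related GTPase, ran from 26.3 to 52 CPM against 12.5 to 29.3 CPM (0.81 ± 0.17, adjusted p = 0.00945), and only 2 mutant libraries (replicates 1 and 3) exceeded the lowest WT NASH-AA library. Irgm2, of the same family, had medians of 65.7 and 42.7 CPM (0.65 ± 0.13, adjusted p = 0.0076). The annotated spans of Igtp and Irgm2 overlap on 1 strand of chromosome 11, so their counts are not fully separate. Rtp4, a chaperone of receptors, and Herc6, a ligase of ISG15, gave 0.60 ± 0.13 and 0.45 ± 0.11 (adjusted p = 0.02 and 0.029). The interferon-responsive transcript AW112010 ran from 50.6 to 73.2 against 28.6 to 60 CPM (0.64 ± 0.11, adjusted p = 0.000929).

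The promoters of 3 of these genes are shown because each holds letters of an element through which interferon signalling is known to act. They are RefSeq sequences of GRCm38.p6 on the plus strand, from 250 bases before to 50 bases after the start site, 5′ to 3′. Capitals mark matches, on either strand, to the ISRE core (GAAA, 2 bases of any kind, GAAA) or the GAS element TTCNNNGAA. In Igtp, at chr11:58199306-58199605, and Irgm2, at chr11:58214727-58215026, a GAS match stands just before an ISRE core match, and the pair of promoters shares an identical run of 61 bases. Gbp3, at chr3:142559794-142560093, holds 2 overlapping ISRE core matches on the minus strand and no GAS match. A second RefSeq promoter of Gbp3, at chr3:142560106-142560405, held no match to either.
Igtp: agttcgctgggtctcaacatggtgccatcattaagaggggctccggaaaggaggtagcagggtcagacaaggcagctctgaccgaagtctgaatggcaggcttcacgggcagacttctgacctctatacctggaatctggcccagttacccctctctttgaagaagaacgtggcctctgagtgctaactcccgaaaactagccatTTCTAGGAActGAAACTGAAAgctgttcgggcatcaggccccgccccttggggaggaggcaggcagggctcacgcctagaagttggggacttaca
Irgm2: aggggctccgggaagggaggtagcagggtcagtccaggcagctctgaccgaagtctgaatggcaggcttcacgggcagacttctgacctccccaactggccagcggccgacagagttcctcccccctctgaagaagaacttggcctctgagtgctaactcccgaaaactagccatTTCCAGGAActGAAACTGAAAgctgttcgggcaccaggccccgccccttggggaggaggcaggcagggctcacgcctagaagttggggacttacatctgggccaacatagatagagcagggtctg
Gbp3: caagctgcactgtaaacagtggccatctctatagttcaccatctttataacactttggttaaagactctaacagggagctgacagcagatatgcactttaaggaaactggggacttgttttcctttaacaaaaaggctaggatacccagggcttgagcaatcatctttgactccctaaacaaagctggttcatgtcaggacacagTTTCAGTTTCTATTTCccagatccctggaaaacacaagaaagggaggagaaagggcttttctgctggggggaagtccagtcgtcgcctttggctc
Of 10935 promoters of tested genes, 3.26% held an ISRE core match and 7.08% a GAS match. Among the 23 promoters found for the interferon list, 11 (47.8%) held the first and 6 (26.1%) the second. The promoter of Ifi47 held neither set of letters in this window. A match is a description of letters and not a measured binding site.

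Beside WT NASH, the interferon list had a median of 0.03 with diet and -0.39 with genotype. Zbp1 gave 0.13 ± 0.18 and -0.88 ± 0.21 (adjusted p = 0.697 and 0.00829), and Ifi47 0.02 ± 0.15 and -0.68 ± 0.16 (adjusted p = 0.955 and 0.00867). Irgm2 gave 0.24 ± 0.13 and -0.42 ± 0.13 (adjusted p = 0.266 and 0.0428). In FAAH S268D NASH the list's mean log2 level relative to all 32 libraries ran from -0.884 to 0.184, lowest in replicates 2, 4 and 8, and in WT NASH-AA from -0.0461 to 0.36. The list's median was 0.40 in libraries numbered 1 to 16 and 0.37 in those numbered 17 to 32. In the 16 libraries fitted alone 0 members passed, although the median was 0.42. Among the named genes Zbp1, Igtp and Irgm2 passed with each library left out in turn. In the 16 libraries alone the adjusted p was 0.0595 for Zbp1, 0.0661 for Irgm2, 0.142 for Rtp4 and 0.154 for Herc6, none past the threshold, and 0.0332 for Igtp. Ifi47 lost its call (adjusted p up to 0.0907) without WT NASH-AA replicate 2, 4, 5, 7 or 8 or FAAH S268D NASH replicate 2, 4, 6, 7 or 8. Gbp3 lost it (up to 0.123) without WT NASH-AA replicate 2, 3, 4, 5, 7 or 8 or FAAH S268D NASH replicate 2, 4, 7 or 8. Rtp4 (up to 0.0735) lost it without WT NASH-AA replicate 5 or 7 or FAAH S268D NASH replicate 2 or 8. Herc6 (up to 0.0831) lost it without WT NASH-AA replicate 4, 5 or 7 or FAAH S268D NASH replicate 2, 4, 7 or 8. With the genes near Faah left out of the adjustment, Ifi47, Gbp3 and Herc6 lost their calls as well, and Zbp1 kept its call.

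**Figure D4:**
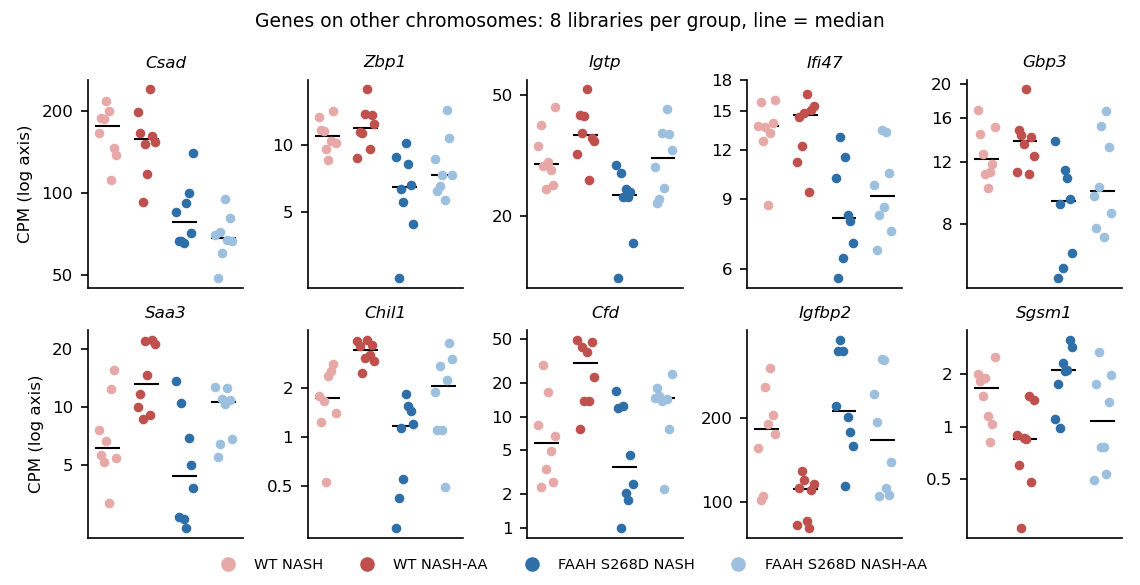
Normalised CPM (log axis) of 10 genes on other chromosomes in the 8 libraries of each of the 4 groups, with the group median as a line. Csad is low in both mutant groups, with medians of 78.1 and 68.5 CPM, whereas Cfd, Saa3 and Chil1 have their highest median in WT NASH-AA.

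Several immune cell lists leaned the same way with few calls, and B and plasma cell genes did not, with 6 of 12 positive, a median of -0.000735 and 0 passed (0 with an unadjusted p under 0.05). Of 17 T and NK cell markers, 16 were positive, with a median of 0.55, and 1 passed, Cd247, the zeta chain of the T cell receptor complex. It was scarce, with medians of 0.459 and 0.144 CPM (1.61 ± 0.37, adjusted p = 0.0274). Its call ended (adjusted p up to 0.0869) without WT NASH-AA replicate 2 or 4 or FAAH S268D NASH replicate 2, 4, 6 or 7. The call of Cd247 also ended with the genes near Faah left out of the adjustment. Cd8a, the coreceptor of cytotoxic T cells, did not pass (1.46 ± 0.56, adjusted p = 0.344). Of 29 cytokine, chemokine and adhesion genes, 27 were positive with a median of 0.42 and 0 passed by limma-voom, 12 with an unadjusted p under 0.05. Its first members by p were Icam1, an adhesion molecule for leukocytes (0.50 ± 0.16, adjusted p = 0.177), Il1b (0.93 ± 0.29, adjusted p = 0.194) and the T cell attractant Cxcl9 (0.78 ± 0.26, adjusted p = 0.242). Of 24 monocyte and macrophage markers, 23 were positive with a median of 0.33 and 0 passed, 6 with an unadjusted p under 0.05. Cd68, a lysosomal protein of macrophages, gave 0.49 ± 0.21 (adjusted p = 0.403).

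Both changes had lower medians than WT NASH in these immune lists, apart from B and plasma cell genes (0.016 with diet and 0.008 with genotype). For monocyte and macrophage markers the median was -0.58 with diet and -0.93 with genotype, and for cytokines -0.52 and -0.92. For T and NK cell markers it was -0.25 and -0.94. The summed level of the monocyte and macrophage markers ran from 672 to 932 CPM in WT NASH-AA and from 384 to 907 CPM in FAAH S268D NASH. FAAH S268D NASH replicates 2, 3 and 4 were the 3 lowest libraries in the cytokine list, at -1.14 to -0.661, and replicates 5 and 6 the highest of that group, at 0.31 and 0.176. The median difference of the macrophage list was 0.57 in libraries numbered 1 to 16 and 0.12 in those numbered 17 to 32, and that of the cytokine list 0.61 and 0.19. Dendritic cell and antigen presentation genes, 17 of 20 positive with a median of 0.26, had medians of 0.68 and -0.07 in the same ranges. Lipid-associated macrophage markers, 13 of 18 positive with a median of 0.13, had 0.51 and -0.29. In both lists 0 genes passed, 3 and 1 with an unadjusted p under 0.05. The first dendritic cell member by p, Cd209a, went the other way (-1.23 ± 0.36, adjusted p = 0.146, limma-voom). Cd86 and Clec9a, the next by p, were positive (0.42 ± 0.19 and 0.28 ± 0.13, adjusted p = 0.453 and 0.516). Neutrophil genes were scarce in both groups, with Ly6g at 0 in 7 of 8 libraries of each.

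**Figure D5:**
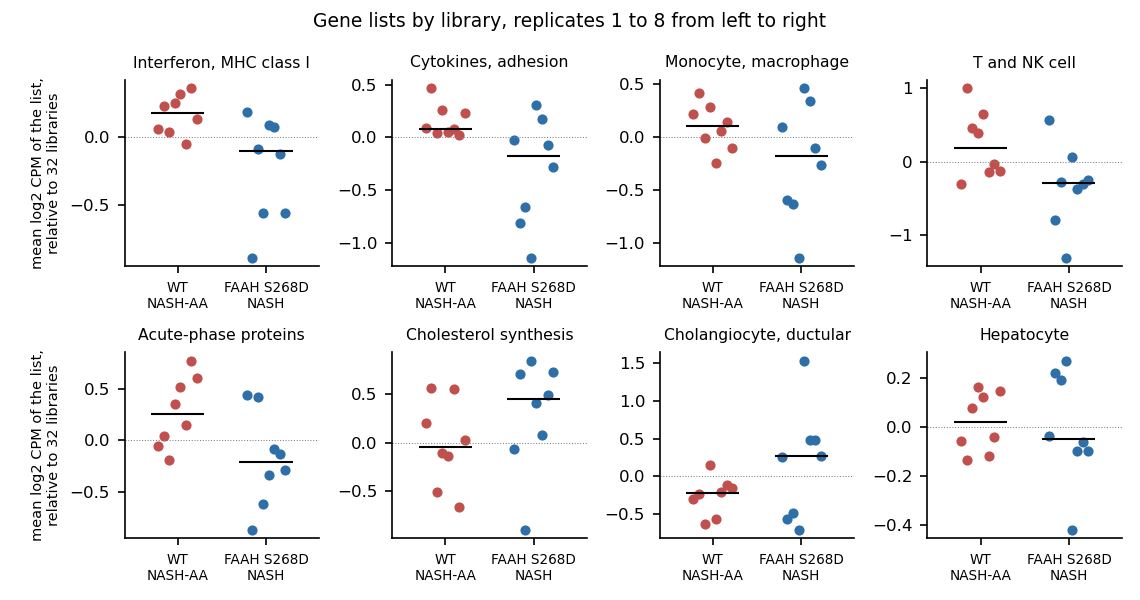
Mean log2 CPM of the members of 8 gene lists in each library, relative to the mean of all 32 libraries, for WT NASH-AA (red) and FAAH S268D NASH (blue), with the group median as a line. The groups overlap in all 8 lists, and the FAAH S268D NASH libraries are spread further, from -1.14 to 0.31 in the cytokine list against 0.0254 to 0.463.

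Secreted proteins of the acute-phase and complement lists were higher in WT NASH-AA in a few cases. Of 24 acute-phase genes, 22 were positive with a median of 0.35, and 10 had an unadjusted p under 0.05. Saa3, a serum amyloid A of macrophages and fat, was the 1 that passed. It ran from 8.64 to 22.4 CPM with a median of 13.2, against 2.33 to 13.6 CPM with a median of 4.36 (1.67 ± 0.33, adjusted p = 0.00516), and FAAH S268D NASH replicates 1 and 3 lay inside the WT NASH-AA range. The hepatocyte forms Saa1 and Saa2 gave 1.33 ± 0.43 and 1.36 ± 0.44 and did not pass (adjusted p = 0.22 and 0.217), nor did Steap4, a metalloreductase (0.80 ± 0.20, adjusted p = 0.0542). The list's median was 0.10 in libraries numbered 1 to 16 and 0.56 in those numbered 17 to 32. Without FAAH S268D NASH replicate 3, 2 members passed. Beside WT NASH, Saa3 gave 1.02 ± 0.29 with diet and -0.65 ± 0.35 with genotype (adjusted p = 0.0423 and 0.244). Chil1, a chitinase-like protein of macrophages, ran from 2.46 to 3.94 CPM against 0.277 to 1.84 CPM, with no overlap (1.66 ± 0.36, adjusted p = 0.0137). It gave 1.02 ± 0.30 with diet and -0.64 ± 0.38 with genotype (adjusted p = 0.0446 and 0.304).

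Cfd, complement factor D, a serine protease of the alternative pathway best known from fat cells, had the largest difference among the protein-coding genes named away from Faah. It ran from 7.72 to 49.5 CPM with a median of 30.4 in WT NASH-AA, and from 0.986 to 16.9 CPM with a median of 3.5 in FAAH S268D NASH (2.76 ± 0.61, adjusted p = 0.0166). The 3 mutant libraries at 12 CPM or more, replicates 1, 2 and 4, overlapped the WT NASH-AA range. Without FAAH S268D NASH replicate 6 the adjusted p was 0.051. Diet gave 1.99 ± 0.52 and genotype -0.77 ± 0.67 beside WT NASH (adjusted p = 0.0326 and 0.505). The defining fat cell markers were at or near 0: Lep at 0 in all 16 libraries, and Adipoq and Plin1 at no more than 0.0383 and 0.0469 CPM. Of 30 complement and coagulation genes tested, 24 were positive with a median of 0.10, and Cfd was the 1 that passed. Without FAAH S268D NASH replicate 3 that median was 0.18, and 2 members passed without replicate 1 or replicate 3. Cfb, its substrate in the alternative pathway, gave 0.26 ± 0.07 (adjusted p = 0.0535).

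Other genes higher in WT NASH-AA included Chd9 at chr8:90828352-91054516, a chromatin remodeller described as a PPARα coactivator. It ran from 83 to 280 CPM with a median of 130 against 54.1 to 87.8 with a median of 61.5 (1.1 ± 0.20, adjusted p = 0.00169), and WT NASH-AA replicates 7 and 8 alone exceeded 133 CPM. Its difference was 0.54 ± 0.13 in libraries numbered 1 to 16 and 1.41 ± 0.29 in those numbered 17 to 32. Genotype gave -0.80 ± 0.20 and diet 0.30 ± 0.20 beside WT NASH (adjusted p = 0.0108 and 0.357). Tfrc, the transferrin receptor that takes up iron, was chosen after its values were seen. It had medians of 22.4 and 11.2 CPM (0.91 ± 0.20, adjusted p = 0.0139), with 0.62 ± 0.18 for diet and -0.28 ± 0.20 for genotype (adjusted p = 0.0459 and 0.393).

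Fewer named genes away from Faah were lower in WT NASH-AA. Igfbp2, a liver-secreted binding protein of insulin-like growth factors, ran from 80.2 to 129 CPM with a median of 111, against 114 to 381 CPM with a median of 211 (-1.13 ± 0.26, adjusted p = 0.0274). FAAH S268D NASH replicates 2, 3 and 4, at 347 to 381 CPM, were the highest and replicate 5, at 114, the only one inside the WT NASH-AA range. Its call ended (adjusted p up to 0.083) without WT NASH-AA replicate 5 or 6 or FAAH S268D NASH replicate 2, 3 or 4. It also ended with the genes near Faah left out of the adjustment. In the list of growth hormone and sex-dependent liver genes, Igfbp2 was the 1 of 25 that passed. Socs2, a feedback inhibitor of growth hormone signalling, gave 1.0 ± 0.29 and did not pass (adjusted p = 0.141). Tff3, a trefoil peptide of mucous epithelia chosen from its list by p, was near the limit of detection, at 0.0474 to 0.381 CPM against 0.385 to 2.25 CPM (-1.68 ± 0.36, adjusted p = 0.0139). The gut and gallbladder markers Muc5b and Cdh17 had medians of 0 in both groups.

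Evc, a cilium protein of hedgehog signalling, had medians of 2.55 and 4.35 CPM (-0.81 ± 0.17, adjusted p = 0.0109). Its call ended in the 16 libraries alone (adjusted p = 0.0621). With diet it gave -0.62 ± 0.17 and with genotype 0.20 ± 0.15 (adjusted p = 0.0372 and 0.454). Sgsm1, a Rab regulator, Dclk3, a kinase, and Ripor2, a RhoA inhibitor, gave -1.42 ± 0.35, -0.70 ± 0.17 and -0.69 ± 0.16 (adjusted p = 0.0434, 0.0438 and 0.0318). These 3 calls ended in 11, 11 and 8 of the 16 fits that left out 1 library (adjusted p up to 0.135, 0.144 and 0.098). For Sgsm1 those libraries were WT NASH-AA replicates 2, 3, 4, 5 and 7 and FAAH S268D NASH replicates 2 and 4 to 8. For Dclk3 they were WT NASH-AA replicates 1, 2, 4, 6, 7 and 8 and FAAH S268D NASH replicates 2, 3, 4, 6 and 7. For Ripor2 they were WT NASH-AA replicates 2, 5, 6, 7 and 8 and FAAH S268D NASH replicates 2, 3 and 6. All 3 calls also ended with the genes near Faah left out of the adjustment.

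Lipid gene lists leaned towards FAAH S268D NASH without a call. Of 24 cholesterol synthesis and uptake genes, 0 had a positive log2 fold change and 0 passed by limma-voom, 3 with an unadjusted p under 0.05, and the median was -0.31. Mvk, mevalonate kinase, gave -0.34 ± 0.10 (adjusted p = 0.117), and Msmo1, a sterol oxidase of the pathway, -0.44 ± 0.22 (adjusted p = 0.547). The summed level ran from 1450 to 2710 CPM in WT NASH-AA and from 1290 to 3300 CPM in FAAH S268D NASH, so the spread within each group covered most of the range of the other. In libraries numbered 1 to 16 the median was -0.15 and in those numbered 17 to 32 it was -0.46, and without FAAH S268D NASH replicate 3 it was -0.51. Of 14 genes of polyunsaturated fatty acid synthesis and remodelling, the steps that lead to arachidonate and place it in membranes, 13 were negative with a median of -0.29 and 0 passed, 4 with an unadjusted p under 0.05. Elovl2, which elongates such fatty acids, gave -0.46 ± 0.16 (adjusted p = 0.277), and Lpcat3, which attaches arachidonate to phospholipids, -0.31 ± 0.11 (adjusted p = 0.302). That list's median was 0.04 in libraries numbered 1 to 16 and -0.59 in those numbered 17 to 32. Of 18 fatty acid synthesis genes 14 were negative with a median of -0.19 and 0 passed, 2 with an unadjusted p under 0.05. That median was -0.42 without FAAH S268D NASH replicate 3, when 1 member passed, and -0.30 without replicate 1. Srebf1, the master regulator of lipogenesis, gave -0.57 ± 0.18 (adjusted p = 0.164).

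Eicosanoid and fatty acid amide genes differed little. Of 18 eicosanoid synthesis and receptor genes, 0 passed and 0 had an unadjusted p under 0.05, with 10 positive and a median of 0.06 (0.09 without FAAH S268D NASH replicate 3, and 0.10 in the 16 libraries alone). Ptges, a prostaglandin E synthase, led by p (0.44 ± 0.31, adjusted p = 0.718). Of 14 genes of N-acyl amide metabolism, Faah was the 1 that passed and 10 were negative, with a median of -0.06. Without FAAH S268D NASH replicate 3, 2 members passed. Mgll, the monoacylglycerol lipase that degrades the endocannabinoid of that class, gave -0.32 ± 0.11 (adjusted p = 0.278), and the cannabinoid receptor gene Cnr2 -0.52 ± 0.17 (adjusted p = 0.236). Cnr2 lies within 40 Mb of Faah. Hepatocyte markers differed little as a list, with 13 of 21 positive, a median of 0.04 and 0 passed (1 with an unadjusted p under 0.05). Of 16 cholangiocyte and ductular genes 15 were negative, with a median of -0.39 and 0 passed, 2 with an unadjusted p under 0.05. Cdh1, the epithelial cadherin, gave -1.21 ± 0.41 (adjusted p = 0.253). FAAH S268D NASH ran from -0.707 to 1.53 in that list and WT NASH-AA from -0.624 to 0.157. Of 18 sinusoidal endothelial markers 16 were negative, with a median of -0.16 and 0 passed, 5 with an unadjusted p under 0.05. Tek, the angiopoietin receptor, which also lies within 40 Mb of Faah, gave -0.38 ± 0.13 (adjusted p = 0.277). Of 28 xenobiotic cytochromes 22 were positive with a median of 0.17 and 0 passed, 6 with an unadjusted p under 0.05. Members of 10 of the 40 lists passed in all.

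Library numbers in the labels run from 1 to 32, and each group has libraries in both of the ranges 1 to 16 and 17 to 32, WT NASH-AA 3 and 5 and FAAH S268D NASH 5 and 3. No source used here says what the numbers mark. Numbers 1 to 16 mix the groups. In the range 17 to 32 each group is an unbroken run, WT NASH-AA at 21 to 25 and FAAH S268D NASH at 26 to 28. Group and library number therefore cannot be told apart in that range. All 102 genes kept their sign in both ranges, which are the same libraries that gave the calls. Fitted within 1 range, 11 genes passed in numbers 1 to 16 and 151 in numbers 17 to 32, of which 10 and 48 were among the 102. 

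Among the genes named, Tceanc2, Crybg2, Tmem51, Ppt1, Hyi, Rtp4, Csad and Cd247 overlap another tested gene on the opposite strand, and Rcc1, Ifi47, Herc6 and Ndufs5-ps overlap 1 on the same strand. Chd9 overlaps a predicted gene on each strand. No source used here says whether reads were assigned by strand, so reads of these genes and their partners cannot be told apart fully.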

How the data were processed

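Per the labels' protocols, liver RNA was isolated in TRIzol, and polyA libraries came from a Tecan kit (Universal Plus mRNA-seq, NuQuant). The submitters' processing notes name Trim Galore 0.6.7, UMI-tools 1.1.2, STAR 2.7.10 and GRCm38, and no source used here names the counting program or the annotation. The authors deposited 1 table of gene counts for 55487 identifiers in 32 libraries, recorded here as another unit because 52450 of 1775584 cells did not read as plain numbers. These were restored from their spreadsheet forms, and 1527 cells (0.086%) had 2 possible originals.

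A gene was tested where its total was at least 15 and at least 8 libraries reached the CPM that 10 counts give at the median library size. TMM factors were computed by own code (trimming 30% of the log ratios and 5% of the mean levels). limma-voom (limma 3.58.1, R 4.3.3; prior count 0.5) fitted 1 mean per group over 32 libraries, leaving 28 residual degrees of freedom, and 2-sided p-values were adjusted by Benjamini-Hochberg over all genes. All adjusted p-values printed are from this model or a stated alternative of it. The method was tested on simulated data with 1 dispersion (0.1) for all genes and groups, although the spread of these groups differed. Of 99 genes simulated to differ by 1 on the log2 scale, 70 (70.7%) were recovered. All 99 simulated to differ by 2 were recovered, and 4 unchanged genes were called. Positions are from GENCODE on GRCm38, and 53417 of 55227 identifiers found had the same symbol. Promoters are from RefSeq (GRCm38.p6).

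Besides Faah, the text names the 12 called genes in each direction that differed most on the log2 scale and the next 5 in each direction by p. These had to average at least 1 CPM, with 6 or more of 8 libraries in each group lying beyond the median of the opposite group. Predicted genes and pseudogenes were left out, some genes that meet the rule are not reported here, and each list described gives up to 4 members with the smallest p. Any gene outside this rule is marked in the text as picked with its values in view. The members and lists were chosen with earlier results of these data known. Alternatives changed the normalization, the filter, the libraries fitted, their weights, the model, the replicate block and the restored cells. The shallow library has the least precision for genes of low level.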

Additional observations from a re-analysis of the deposited data

Results flagged for a closer look

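In 12 of 112 groups of 8 values tested, 1 library stood apart from the others by more than Dixon's critical share of the group's range. Chance gives about 1 in 20 such groups. Total counts did so in both groups, with 34370023 in WT NASH-AA replicate 7 and 3851389 in FAAH S268D NASH replicate 1.

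Among WT NASH-AA libraries, Evc was 4.25 CPM in replicate 7. Tceanc2 was 9.82 CPM in replicate 1, the low value of its group. Hdac1 was 22.7 CPM and Cd247 1.02 CPM in replicate 2. Gbp3 was 19.3 CPM in replicate 5.

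Among FAAH S268D NASH libraries, Hdac1 was 23.5 CPM and Hdac1-ps 2.77 CPM in replicate 1, the shallow library. Zfp982 was 6.31 CPM and Csad 141 CPM in replicate 8. Chd9 was 87.8 CPM in replicate 6.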

How the results depend on the processing

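The comparison called 102 genes, 51 higher and 51 lower. Fitted on the 16 libraries alone it called 58 (29 higher and 29 lower), of which 57 were among the 102. Quality weights per library gave 336 (158 higher and 178 lower), with 98 of the 102. One quality weight per group, chosen after seeing the data, gave 66 (31 higher and 35 lower). Library numbers 1 to 16 alone gave 11 (7 higher and 4 lower), and numbers 17 to 32 alone gave 151 (56 higher and 95 lower). Without the genes near Faah 28 passed (16 higher and 12 lower), where 50 genes elsewhere had passed with them included. Of the 9 genes named by rule elsewhere 4 lost their call, Igfbp2, Sgsm1, Dclk3 and Ripor2. Ifi47, Gbp3, Herc6 and Cd247 lost theirs too. With an absolute log2 fold change of at least 1 the count was 39 (19 higher and 20 lower). The cause of these shifts was not tested, apart from the genes or libraries each setting leaves out. Leaving out 1 library at a time gave 76 to 148 genes, 38 to 74 higher and 36 to 74 lower. The other normalizations, filters, limma-trend, the library-number term and the other reading of restored cells gave 83 to 108. None of the 35 genes named by rule reversed its sign under these settings, and 30 kept their call in the 16 libraries alone. Fewer kept it elsewhere: 26 with 1 quality weight per group and 13 with the replicate block in the 16 libraries alone. In library numbers 17 to 32 alone 20 kept it, and in numbers 1 to 16 alone 5.

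Same-numbered libraries correlated from -0.183 to 0.175 in their deviations, 2 of 8 pairs over 0.1, and 1 WT NASH-AA library correlated best with its own number. No pairing by number was seen in these values, which cannot exclude one. With the replicate block 69 genes passed (33 higher and 36 lower), and with the replicate block in the 16 libraries alone, added after seeing the data, 19 (10 higher and 9 lower). The planned count-model alternatives were not run. The limma-voom fits used the restored cells, rounded to whole counts. The shallow FAAH S268D NASH library limits what can be seen in genes of low level.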

Other observations

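FAAH S268D NASH libraries differed among themselves in several lists. In the list of growth hormone and sex-dependent liver genes, replicates 1 to 4 lay between 0.498 and 0.538 and replicates 5 to 8 between -0.484 and -0.333 on the log2 scale relative to all 32 libraries, while WT NASH-AA ran from -0.223 to 0.346. In lipid-associated macrophage markers, which mark macrophages of fatty liver, replicates 2 to 4 lay between -1.47 and -0.904, and replicate 1, at 0.307, lay among replicates 5 to 8, at 0.19 to 0.83. Cell division genes ran from -1.15 to 0.612 in FAAH S268D NASH and from -0.354 to 0.344 in WT NASH-AA, and 0 of 25 passed by limma-voom, 1 with an unadjusted p under 0.05. Replicate numbers rise with library number. In FAAH S268D NASH, replicates 1 to 4 have library numbers from 3 to 11 and replicates 5 to 8 from 14 to 28. What separates these libraries is not said in any source used here.

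NRF2 and glutathione genes, which answer oxidative stress, were positive in 17 of 18 cases with a median of 0.20, and 0 passed, 4 with an unadjusted p under 0.05. Nqo1, a quinone reductase, gave 0.58 ± 0.20 (adjusted p = 0.277, limma-voom). The list's median was 0.55 in libraries numbered 1 to 16 and -0.06 in those numbered 17 to 32. Genes of stellate cell activation and matrix, the source of scar tissue, were positive in 23 of 35 cases with a median of 0.06, and 0 passed or had an unadjusted p under 0.05. That median was 0.000941 without FAAH S268D NASH replicate 3.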
